A study of Mus musculus with 6 samples.

Results

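The genes described here are the core machinery that joins and divides mitochondria, measured in BV2 cells, an immortalised mouse microglial line. The 8 genes were chosen by name: the fusion genes Mfn1, Mfn2 and Opa1, and the fission genes Dnm1l, Fis1, Mff, Mief1 and Mief2. All 8 were found among the 17872 genes of the count table, and all 8 passed the filter on low counts. RNA-seq libraries came from 2 groups of 3, cells labelled as a CRISPR-Cas9 knockout of Tfam, whose Tfam mRNA was not lower, and wild-type controls, neither given any further treatment according to the labels. Tfam makes the packaging and transcription factor of the mitochondrial genome, and the study set out to learn what its removal does to the RNA of microglial cells. Growth with 2 µg/mL puromycin after editing is given for all 6 samples, controls included, in a protocol worded for edited cells. The labels leave unclear whether edited cells were 1 clone or a pool, and what the controls carried.

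Mitochondria form a network whose shape follows from the balance of membrane fusion and membrane division. The mitofusins Mfn1 and Mfn2 are large GTPases that join outer membranes, and Opa1 joins inner membranes and keeps the cristae in shape. Division is carried out by Drp1, the product of Dnm1l, a dynamin-like GTPase that is drawn from the cytosol to the outer membrane by the receptors Mff, Mief1 (MiD51) and Mief2 (MiD49) and assembles there into a constricting ring. Fis1 is an outer membrane protein first known for its role in fission, and much of the control of all these proteins is by cleavage, phosphorylation and ubiquitination, which counts of mRNA do not measure.

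The libraries held 13850691 to 20889786 counts in the cells labelled knockout and 14642397 to 28418133 counts in controls. Tfam mRNA itself was not lower in the labelled knockout, at 42.3 ± 1.15 CPM against 38.2 ± 1.01 CPM in controls (SD, n = 3 each; log2 fold change 0.14 ± 0.0869, SE; adjusted p = 0.193 in edgeR's quasi-likelihood test), so the edited group is called by its label. The 12 testable mRNAs of the mitochondrial genome all fell (median log2 fold change -1.89), and genes of that genome took 1.40% ± 0.0299 of counts in the labelled knockout and 3.79% ± 0.456 in controls (SD over 3 libraries a group; p = 0.1 in an exact permutation test, two-sided, the lowest value possible with 3 against 3). Of 10 macrophage and microglia markers tested, 7 were lower and 1 higher in the labelled knockout, 80% called, against 44.2% of all tested genes. With single libraries left out, 5 to 7 markers were called lower. Cx3cr1 lost its call without labelled knockout 2 or 3 or control 1 or 2. The call of Cd68 was lost without control 2 and in the authors' normalized table. Csf1r, a receptor of microglial growth factors, fell most, to 182.4 CPM in the labelled knockout, against 501.0 CPM in controls (log2 fold change -1.46), and Adgre1, which encodes the macrophage antigen F4/80, was the one that rose (0.61). Cd68 was abundant in both groups, at 1003 and 1264 CPM in labelled knockout and control, while Cx3cr1 was at 0.79 and 1.82 CPM, and the summed level of 12 markers of other brain cells was 26.0 to 29.2 CPM in the labelled knockout and 49.2 to 50.7 CPM in controls. Whether that shift had a part in the results below was not tested. In bulk RNA, fewer cells of a kind and less RNA per cell cannot be told apart, and replicates are not stated to be separate cultures, so the spread behind each p-value may be technical only.

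Among the 8 genes, Mief2 rose and Fis1 fell in the cells labelled knockout, and the other 6 did not pass the test. Across the transcriptome 44.2% of 13403 tested genes were called at an adjusted p below 0.05, 21.3% as higher and 22.9% as lower, so that 1 gene called in each direction out of 8 is no larger a share than in the background. The median log2 fold change of the 8 genes was 0.11, with 0.0012 for all tested genes, and 6 of the 8 had an absolute change below the median of all tested genes, 0.30. Both called genes belong to the fission arm, and they moved in opposite directions. In that arm 40% of 5 genes were called, near the 44.2% of all tested genes.

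The start regions of the called genes and of Mief1, the paralog of Mief2, are shown so that the genes whose change is described can be located. Each window runs from 250 bases before to 50 bases after a RefSeq transcript start on GRCm38.p6, another build than the authors'. Entries were found for 8 of the 8 genes, in 13 windows. Capitals mark the letters CCGGAAG, the core of the binding motif of ETS factors, or CACGTG, the E-box, which also holds the hypoxia response element core ACGTG; both strands were searched for these and for the cyclic AMP response element TGACGTCA, the YY1 motif AAGATGGC and the ERR motif TNAAGGTCA. Fis1 has a second RefSeq start further downstream, which is not printed. The Fis1 window lies at chr5:136953025-136953324 (+), the Mief2 window at chr11:60728148-60728447 (+) and the Mief1 window at chr15:80233830-80234129 (+).
Fis1: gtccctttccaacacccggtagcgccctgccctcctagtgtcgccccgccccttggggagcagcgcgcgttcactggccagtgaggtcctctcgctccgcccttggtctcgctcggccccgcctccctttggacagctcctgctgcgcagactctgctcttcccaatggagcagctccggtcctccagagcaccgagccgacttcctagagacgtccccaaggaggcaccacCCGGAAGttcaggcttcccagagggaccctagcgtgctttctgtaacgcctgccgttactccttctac
Mief2: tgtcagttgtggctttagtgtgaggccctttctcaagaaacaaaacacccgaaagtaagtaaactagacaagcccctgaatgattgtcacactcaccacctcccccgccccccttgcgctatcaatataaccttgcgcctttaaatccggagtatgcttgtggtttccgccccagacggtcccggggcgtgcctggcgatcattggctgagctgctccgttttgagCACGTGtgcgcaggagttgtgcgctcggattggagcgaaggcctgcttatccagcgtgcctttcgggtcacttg
Mief1: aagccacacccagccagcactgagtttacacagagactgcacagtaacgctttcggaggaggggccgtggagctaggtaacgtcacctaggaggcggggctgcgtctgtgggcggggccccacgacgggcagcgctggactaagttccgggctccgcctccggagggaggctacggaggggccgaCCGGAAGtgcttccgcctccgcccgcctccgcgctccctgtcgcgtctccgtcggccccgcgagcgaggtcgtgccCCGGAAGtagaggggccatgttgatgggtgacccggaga
The ETS letters began at position -18 in the Fis1 window and at -65 and 12 in the Mief1 window, counted from the transcript start. They also began at 20 in the second Fis1 window and, among genes that were not called, at -44 in a window of Mfn1 and at 13 in a window of Dnm1l, and they occur in 8.86% of 32851 RefSeq windows of this length. The E-box letters began at -24 in the Mief2 window and occur in 7.15% of windows, and the letters ACGTG in 19.6%. ACGTG also began at -2 and -39 in 2 overlapping windows of Mfn2, which is the same genomic site counted from different starts. The other 3 motifs, found in 1.79% (cyclic AMP response element), 2.75% (YY1) and 1.28% (ERR) of windows, had 0 matches in the windows of the 8 genes. A match is a run of letters and does not show that a factor binds.

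Mief2, one of the receptors that bring Drp1 to the outer membrane, was the gene that rose. It had 448, 306 and 257 raw counts in replicates 1 to 3 of the labelled knockout and 437, 219 and 204 in those of the control. Scaled to library size (TMM-scaled counts per 1e+06 counts, CPM), this was 21.2, 17.6 and 17.9 CPM in the labelled knockout and 15.5, 14.3 and 14.4 CPM in controls. The groups did not overlap, which holds for 52.9% of all tested genes, and the highest library was labelled knockout 1. The log2 fold change was 0.36 ± 0.119 (SE), a 1.28-fold rise with a 95% interval of 1.08 to 1.52 (adjusted p = 0.0215, edgeR). The call was lost without labelled knockout 1 (0.26, adjusted p = 0.108), without control 2 (0.34, adjusted p = 0.0615) and without control 3 (0.35, adjusted p = 0.0591).

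Mief1, the closely related receptor, was higher in each of the 3 labelled knockout libraries, without passing the test. Its levels were 71.8, 70.0 and 67.9 CPM in the labelled knockout and 61.2, 63.3 and 62.8 CPM in controls, again with no overlap. The log2 fold change was 0.16 ± 0.0751 (SE; adjusted p = 0.0883, edgeR), with a 95% interval of 1.00 to 1.25 for the fold. Scaled by library totals alone Mief1 passed (0.26, adjusted p = 0.0117), as it did in the authors' normalized table (0.26, adjusted p = 0.0271). Within a library, Mief1 had 3.72 ± 0.299 times as many raw counts as Mief2 in the labelled knockout and 4.24 ± 0.265 times as many in controls (SD, n = 3 each), and these ratios overlapped between the groups.

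Fis1, a small outer membrane protein, was the gene that fell. Its raw counts were 1245, 781 and 655 in replicates 1 to 3 of the labelled knockout and 1586, 1093 and 985 in controls. The levels were 58.8, 44.9 and 45.7 CPM in the labelled knockout and 56.4, 71.2 and 69.7 CPM in controls, so that the first replicates of the 2 groups lay together and the others apart. The log2 fold change was -0.39 ± 0.112 (SE), a fold of 0.76 with a 95% interval of 0.65 to 0.90 (adjusted p = 0.00867, edgeR). The call was lost without control 2 (-0.32, adjusted p = 0.0523) and without control 3 (-0.34, adjusted p = 0.0512), and in the authors' normalized table (-0.30, adjusted p = 0.118).

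Fis1 has the shortest transcript of the 8 genes, with 948 bases in its longest coding form, against 2087 to 6230 bases in the others. Short transcripts as a class were lower in the labelled knockout: when genes were divided into 5 classes of equal size by length, the class with transcripts of up to 1482 bases had a median log2 fold change of -0.14, with 27.0% called lower and 11.0% higher, while the class with the longest transcripts had a median of 0.068. The shortest class also separated the libraries within the groups, with median deviations from the gene mean of 0.0044, -0.17 and -0.042 on the log2 CPM scale in labelled knockout 1 to 3 and -0.022, 0.14 and 0.12 in control 1 to 3. Fis1 deviated by 0.048, -0.34 and -0.31 in labelled knockout 1 to 3 and by -0.012, 0.33 and 0.29 in control 1 to 3. With an offset for transcript length and GC content, Fis1 had a log2 fold change of -0.18 and did not pass (adjusted p = 0.0995, edgeR). Mief2 was called as higher at 0.46 with that offset (adjusted p = 0.00228, edgeR). Whether length or GC content had a part in the change of either gene was not tested.

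**Figure D1:**
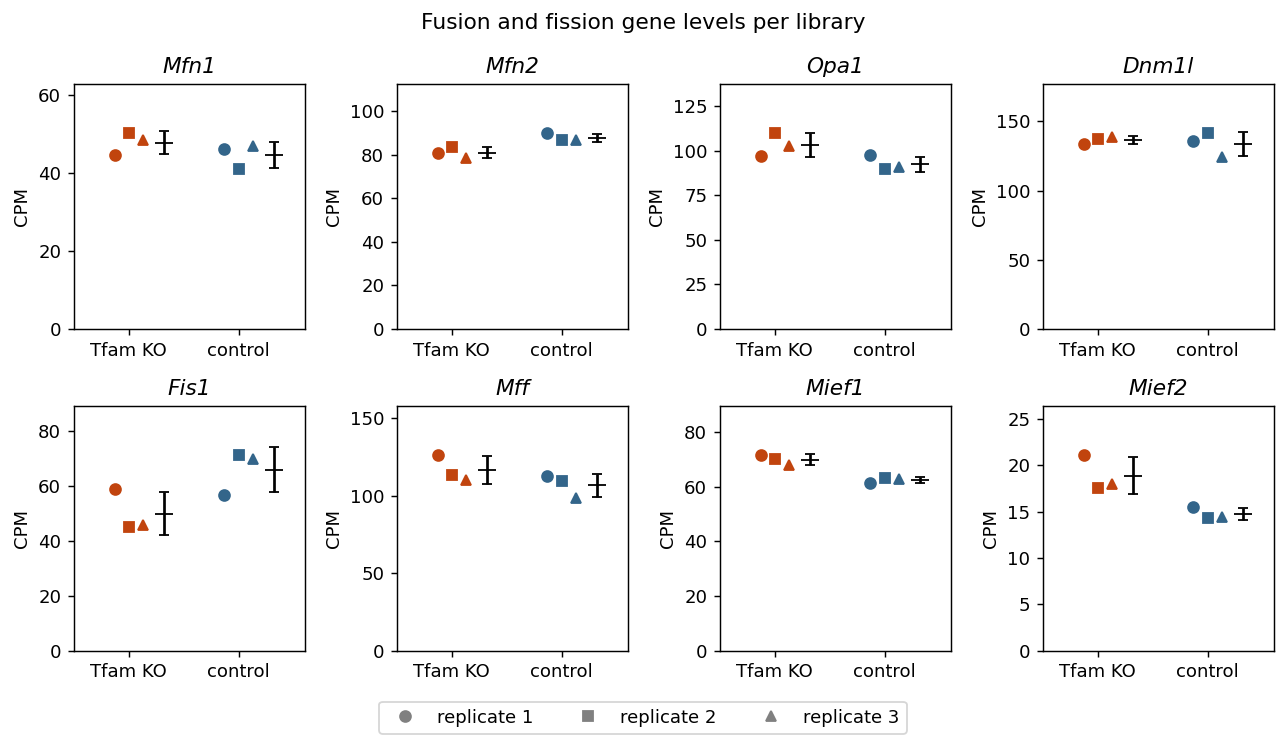
Level of each gene in TMM-scaled counts per 1e+06 counts (CPM) in the 3 libraries labelled Tfam knockout and the 3 controls; marker shapes give the replicate, and black bars the mean and SD. Mief2 lies between 17.6 and 21.2 CPM in the labelled knockout and between 14.3 and 15.5 CPM in controls, and for Fis1 the first replicates of both groups lie at 56.4 to 58.8 CPM.

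Dnm1l, which encodes the fission GTPase Drp1, had the smallest change of the 8. It was at 133.5, 137.2 and 139.0 CPM in the labelled knockout, inside the range of the controls at 135.6, 141.7 and 124.5 CPM. The log2 fold change was 0.027 ± 0.0724 (SE; adjusted p = 0.791, edgeR), with a 95% interval of 0.92 to 1.13 for the fold. It turned to -0.027 with the offset for length and GC content and to -0.013 without control 3. Mff, the receptor that recruits most Drp1 in many cell types, was at 126.4, 112.9 and 110.0 CPM in the labelled knockout and 112.3, 109.1 and 98.3 CPM in controls. The groups overlapped, and the log2 fold change of 0.13 ± 0.0792 (SE) did not pass (adjusted p = 0.207, edgeR).

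Of the 3 fusion genes 0 passed the test in edgeR, which called 44.2% of all tested genes. At an unadjusted p below 0.05 there were also 0, and DESeq2 and limma-voom, run on the same libraries, called 0. With 3 genes, this count does not set the fusion genes apart from the background. Opa1, the inner membrane GTPase, was at 96.9, 110.0 and 102.7 CPM in the labelled knockout and 97.3, 89.6 and 90.6 CPM in controls, with labelled knockout 1 below control 1. The log2 fold change was 0.16 ± 0.0757 (SE; adjusted p = 0.105, edgeR), with a 95% interval of 1.00 to 1.24 for the fold, and was 0.076 with the offset for length and GC content. Mfn1 was at 44.6, 50.3 and 48.3 CPM in the labelled knockout and 46.2, 40.9 and 46.9 CPM in controls (log2 fold change 0.094 ± 0.0916, SE; adjusted p = 0.434, edgeR). Its sister gene Mfn2 leaned the other way. Mfn2 was at 80.5, 83.4 and 78.3 CPM in the labelled knockout, below every control at 89.95, 86.6 and 86.5 CPM. Such a lack of overlap holds for 52.9% of all tested genes. The log2 fold change of -0.12 ± 0.0718 (SE) did not pass (adjusted p = 0.193, edgeR). The 95% intervals of the fold ran from 0.93 to 1.22 for Mfn1 and from 0.83 to 1.02 for Mfn2.

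**Figure D2:**
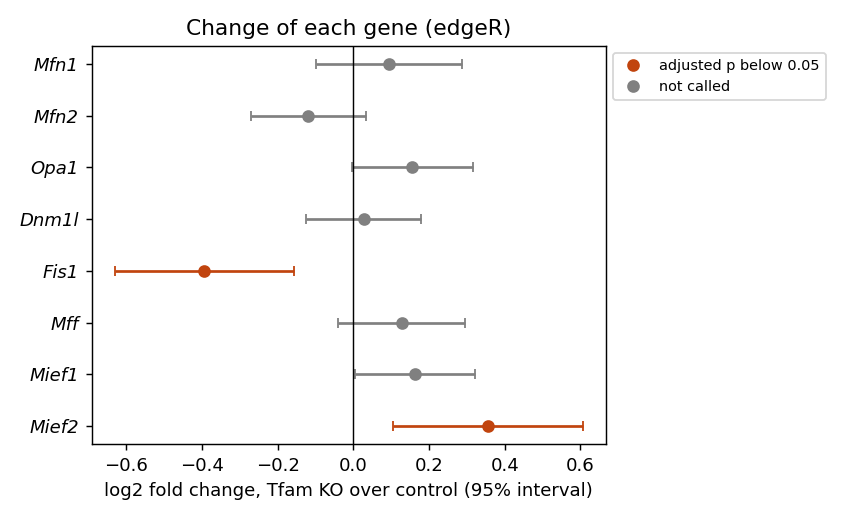
Log2 fold change of each gene, labelled Tfam knockout over control, with its 95% interval from edgeR; filled orange points passed the test. The estimates of Fis1 at -0.39 and Mief2 at 0.36 lie outside those of the 6 others, -0.12 to 0.16. Their intervals overlap some of the others' intervals.

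Ratios of raw counts within a library do not depend on how libraries are scaled to each other, so they were compared for gene pairs. Opa1 and Dnm1l belong to opposite arms, and the other pairs each to the same arm. Per Mfn2 count there were 0.55, 0.60 and 0.62 Mfn1 counts in the labelled knockout and 0.51, 0.47 and 0.54 in controls. The mitofusin ratio was thus higher in each labelled knockout library, at 0.59 ± 0.0332 against 0.51 ± 0.0354 in controls (SD, n = 3 each), although neither mitofusin was called alone. The GC content of Mfn1 and Mfn2 differs (45.9% and 53.1%). With the offset for length and GC content their log2 fold changes were nearer to each other, at 0.026 and -0.067. Among single genes, 52.9% of those tested had groups that did not overlap. Per Mff count there were 0.47, 0.40 and 0.42 Fis1 counts in the labelled knockout and 0.50, 0.65 and 0.71 in controls. The groups again did not overlap, and Fis1 has a shorter transcript than Mff. Per Dnm1l count there were 0.73, 0.80 and 0.74 Opa1 counts in the labelled knockout and 0.72, 0.63 and 0.73 in controls. For this last pair labelled knockout 1 (0.7256) lay below control 3 (0.7273), so the groups overlapped. The ratios are given as values, with no test, and whether transcript length or GC content had a part in them was not tested.

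**Figure D3:**
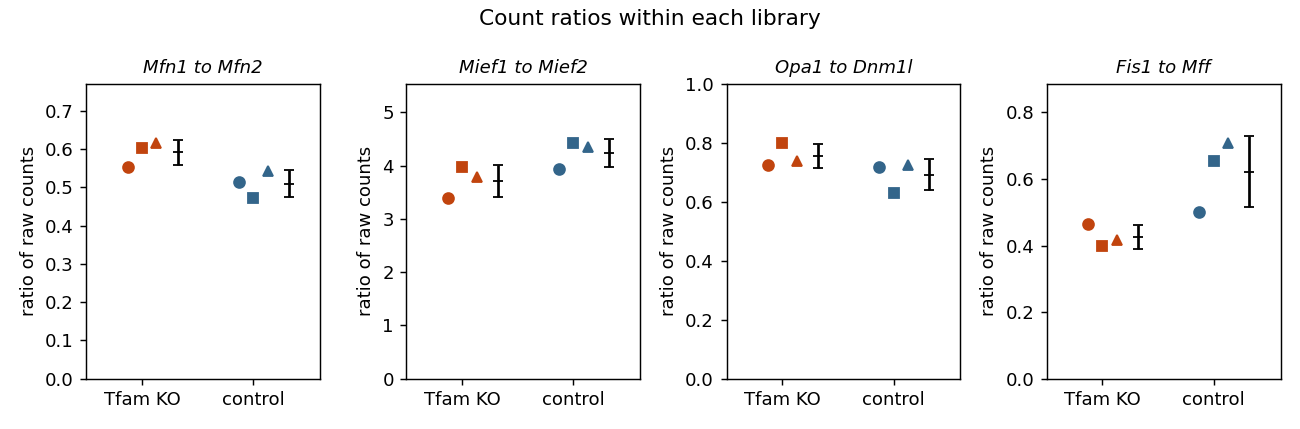
Ratio of raw counts of gene pairs within each library, for the 3 libraries labelled Tfam knockout and the 3 controls; marker shapes give the replicate, and black bars the mean and SD. Mfn1 to Mfn2 is higher in all 3 labelled knockout libraries (0.55 to 0.62) than in controls (0.47 to 0.54), and Fis1 to Mff lower.

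Levels were also compared between genes after division by the length of the longest coding transcript, in CPM per kilobase. In the labelled knockout, Mff stood highest at 55.8 ± 4.19 and Fis1 next at 52.5 ± 8.24 CPM per kilobase, and their ranges overlapped. In controls Fis1 stood highest at 69.4 ± 8.62 CPM per kilobase and Mff next at 51.1 ± 3.51, with no overlap. The order below them was the same in both groups, and each neighbour was separate from the next: Dnm1l at 34.4 ± 0.706 and 33.8 ± 2.19 CPM per kilobase in labelled knockout and control, then Mfn2 at 18.6 ± 0.580 and 20.2 ± 0.457, Opa1 at 16.6 ± 1.06 and 14.8 ± 0.676, Mief1 at 13.6 ± 0.379 and 12.1 ± 0.211, Mfn1 at 10.5 ± 0.630 and 9.79 ± 0.725, and Mief2 at 7.49 ± 0.781 and 5.85 ± 0.272 (SD, n = 3 each). The gene that rose was therefore the one with the lowest level of the 8 in both groups. Added together, the 3 fusion genes had 231.7 ± 11.0 CPM in the labelled knockout and 224.8 ± 8.28 CPM in controls, and the 5 fission genes 391.6 ± 17.4 and 383.5 ± 15.1 CPM (SD, n = 3 each), differences that lay within the spread of the libraries.

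Genes with the most similar pattern over the 6 libraries were taken by Pearson correlation of log2 CPM with each called gene, among 9461 other genes averaging 5 CPM or more. Fis1 was closest to Atp6v0e, a subunit of the proton pump that acidifies lysosomes (r = 0.997; log2 fold change -0.32), and to Cnpy2 (r = 0.994; -0.36). Mief2 was closest to Mrps18b, a mitochondrial ribosomal protein (r = 0.997; 0.44), and to Metrnl, a secreted protein (r = 0.995; 0.27). The values are over 6 libraries that share the same 2 groups, and are given as a description.

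Lists of genes that act on the fusion and fission machinery are set against the 44.2% called among all tested genes and their median log2 fold change of 0.0012. Among 9 tested genes for the cleavage of Opa1 and its surroundings, 2 rose and 2 fell, a share of 44.4% that lies at the background (median 0.026). Afg3l2, a subunit of the inner membrane m-AAA protease, fell to 345.8 ± 3.98 CPM in the labelled knockout, against 544.9 ± 20.02 CPM in controls (log2 fold change -0.66 ± 0.0738, SE; adjusted p = 1.77e-06, edgeR), and the prohibitin Phb, a scaffold of that membrane, fell by 0.50 on the log2 scale. The rhomboid protease Parl rose by 0.35 and the matrix protease subunit Clpp by 0.27 on the log2 scale. The call of Clpp was lost without labelled knockout 3 (adjusted p = 0.0532). The proteases known to cut Opa1 directly were not called: Oma1 was at 35.6 and 37.0 CPM in labelled knockout and control (log2 fold change -0.054; adjusted p = 0.661, edgeR), and Yme1l1 at 95.3 and 94.1 CPM (0.019; adjusted p = 0.854). Of 5 genes that help outer membrane fusion (median -0.17), 1 fell (20%), Slc25a46, an outer membrane protein of the carrier family, at 44.9 ± 1.23 CPM in the labelled knockout and 55.3 ± 1.38 CPM in controls; that call did not hold with library totals or in the authors' normalized table, with limma, and without labelled knockout 1 the count was 2. With the length and GC offset 4 of the 9 genes for Opa1 cleavage were called higher.

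Among 13 genes that assist fission, 4 rose and 2 fell, or 46.2%, which is also near the 44.2% of all tested genes (median log2 fold change -0.0048). Mtfr2, a fission regulator, rose most, to 16.2 ± 2.55 CPM in the labelled knockout, against 7.17 ± 0.504 CPM in controls (2.25-fold; adjusted p = 7.57e-06, edgeR). Rab32, a small GTPase of mitochondria and lysosome-related organelles, rose by 0.42, Mtfr1 by 0.29 and Tbc1d15, a Rab regulator that binds Fis1, by 0.25 on the log2 scale. The formin Inf2, which builds actin at sites of constriction, fell by 0.61 and Bcap31, a Fis1 partner of the endoplasmic reticulum, by 0.35 on the log2 scale. Calls were lost for Mtfr1 (without any single library other than control 1, adjusted p up to 0.226, and with DESeq2, limma-voom, the 5 CPM filter and the length and GC offset) and Tbc1d15 (without labelled knockout 2 or 3 or control 3, adjusted p up to 0.107). Among 27 kinases, phosphatases and ubiquitin or SUMO enzymes that modify Drp1 or mitofusins, 7 rose and 7 fell, or 51.9%, against 44.2% of all tested genes (median 0.034). Without control 3, 4 of them fell, and 3 did with library totals or in the authors' normalized table. The largest changes included genes of mitosis that are known to act upstream of Drp1. The kinase Aurka rose 1.99-fold, the cyclin Ccnb1 1.91-fold and its kinase Cdk1 1.72-fold, the last to 93.1 ± 9.58 CPM in the labelled knockout, against 54.0 ± 2.41 CPM in controls (adjusted p = 1.40e-06, edgeR). Dusp6, a phosphatase of the MAP kinase ERK, fell by 1.17 on the log2 scale.

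The lists of transport genes, dynamin relatives and general mitochondrial genes had calls in shares of 42.9% to 58.3%, near the 44.2% of all tested genes. The share was 10% in a list of 10 genes for the complex that shapes cristae and its partners Samm50, Mtx1, Mtx2 and Dnajc11 (median log2 fold change -0.10). Its 1 called gene, Minos1, fell by 0.62 on the log2 scale, to 84.3 ± 10.5 CPM in the labelled knockout, against 130.2 ± 17.8 CPM in controls (adjusted p = 0.000109, edgeR). With the length and GC offset 1 gene of this list was called higher and 2 lower. With library totals, in the authors' normalized table and without labelled knockout 2, 1 was called in each direction. So few genes do not set the list apart. Of 7 genes that move mitochondria along the cytoskeleton (median 0.15), Rhot1 (0.25), the kinesin Kif5b (0.28) and the myosin Myo19 (0.37) rose and the adaptor Trak2 (-0.21) fell, with log2 fold changes in brackets. Calls were lost for Kif5b (without control 3, adjusted p = 0.0574), Myo19 (without labelled knockout 3, adjusted p = 0.0578) and Trak2 (without any single library other than labelled knockout 2, adjusted p up to 0.229, and with DESeq2, with no filter and without mitochondrial genes). Of 7 relatives in the dynamin superfamily (median 0.14), Mx2 (0.73) and Atl2 (0.44) rose and Dnm1 (-0.30) fell, the last call being lost without labelled knockout 1 or 3 or control 3 (adjusted p up to 0.126). Of 12 general mitochondrial genes (median 0.099) 3 were higher, the chaperones Hspd1 (0.50) and Hspa9 (0.49) and citrate synthase Cs (0.27), and 4 lower, the outer membrane channels Vdac1 (-0.40) and Vdac2 (-0.31), the import receptor Tomm22 (-0.31) and the import motor subunit Timm44 (-0.22). Cs was not called without control 3 (adjusted p = 0.0540), nor Timm44 without labelled knockout 3 or control 1 or 2 (adjusted p up to 0.0758). Without labelled knockout 2, 5 of the 12 were called higher, and 6 were with library totals. Of 9 regulators of mitochondrial biogenesis, 4 rose (44.4% called, median 0.14): Tfb1m (0.58), Pprc1 (0.40), the transcription factor Nrf1 (0.36) and Gabpb1 (0.34). In this list, which holds Tfam itself, 0 genes fell in edgeR, where 22.9% of all tested genes did. At an unadjusted p below 0.05 there were also 0 lower, and DESeq2 and limma-voom, run on the same libraries, called 0 lower. With 9 genes, this count does not set the list apart from the background. In the authors' normalized table Mtfr1, Tbc1d15, Bcap31, Trak2, Dnm1, Tomm22, Vdac2 and Timm44 were not called, with library totals Trak2, Dnm1 and Timm44 were not, and with the length and GC offset Dnm1 and Timm44 were not.

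**Figure D4:**
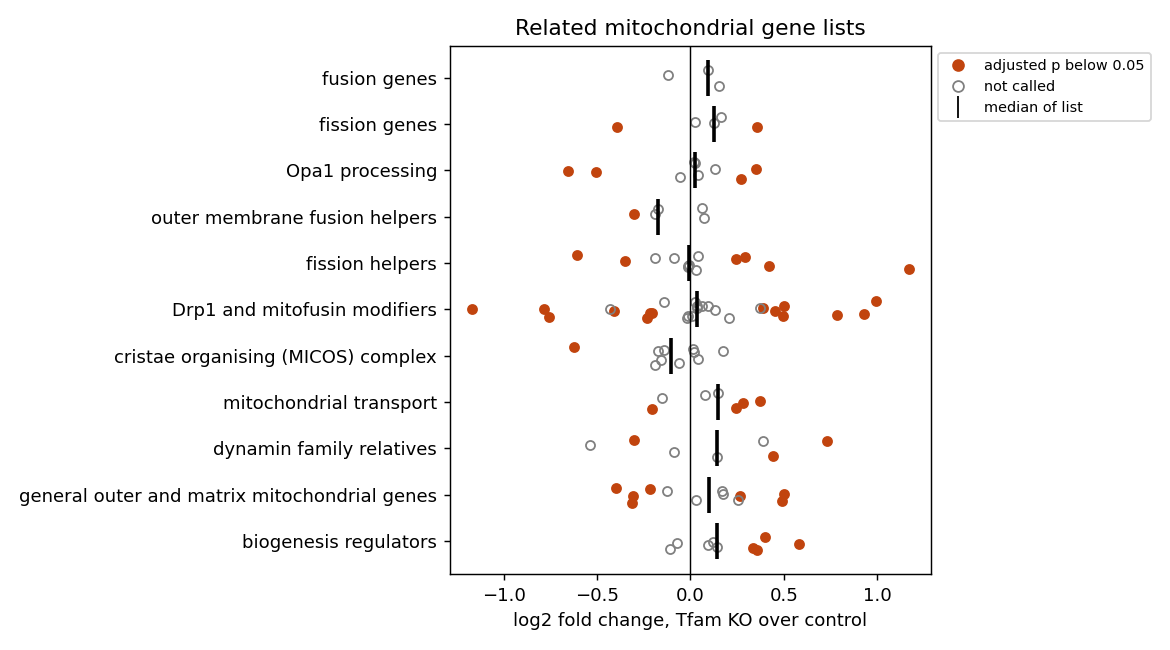
Log2 fold changes, labelled Tfam knockout over control, of the fusion and fission genes and of related gene lists; each point is 1 tested gene, filled where it passed the test, and bars mark the median of a list. Of the 8 fusion and fission genes, Fis1 and Mief2 are filled, while the modifiers of Drp1 and mitofusins reach from -1.17 to 0.99.

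When the analysis was changed, the 8 genes kept direction and call in 121 of 136 values from 17 alternatives each. For the 6 genes not called, staying uncalled counts as kept. Of the 2 called genes, Fis1 kept its call in 12 of 17 alternatives and Mief2 in 13 of 17. Scaling by library totals alone moved the median of all genes to 0.10 on the log2 scale and changed the share of higher genes among all calls to 61.8%, against 48.2%, and with it Opa1 (0.26, adjusted p = 0.0196), Mff (0.23, adjusted p = 0.0313) and Mief1 were called as higher beside Mief2. Neither Fis1 nor Mief2 passed a test against a change of 1.5-fold. Fis1 was lower and Mief2 higher under each of the 17 alternatives, and Mfn1 and Mfn2 were called under none of them. The test against 1.5-fold reuses the fold changes of the main fit, so it could not change a direction. All 8 genes changed by less than 1.5-fold in that fit, so it could not call any of them either. Its values among the 136, and the loss of both calls under it, were fixed in advance.

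**Figure D5:**
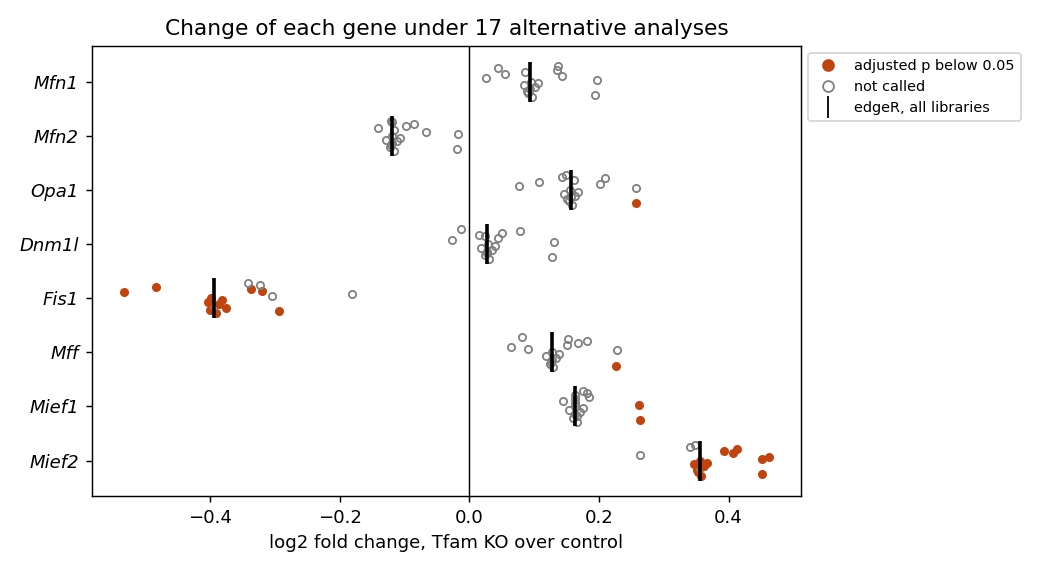
Log2 fold change of each gene, labelled Tfam knockout over control, under 17 alternative analyses (circles, filled where the adjusted p was below 0.05) and in the edgeR analysis of all 6 libraries (bars). Fis1 ranges from -0.53 to -0.18 and Mief2 from 0.26 to 0.46, while Dnm1l spans 0.

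Counts per gene do not separate splice forms, and reads that overlap another gene cannot be assigned by strand in these libraries. In GENCODE M21, exons of Dnm1l share 243 bases with an antisense gene, exons of Mff share 195 bases with C430014B12Rik, which had 0 to 7 counts per library, and exons of Mief1 share 213 bases with a coding gene on the same strand. A transcript of Mfn1 holds a stretch of up to 176 bases that matched transcripts of 30 other genes at 95% identity or more, and no such match outside overlapping genes was found for the other 7.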

How the data were processed

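RNA of 6 BV2 samples was sequenced as poly(A) libraries with a kit that does not mark strand, per the labels' protocols. The deposited count table holds raw read counts per gene; the authors' second table holds log2 values, which from the values equal log2 of a count scaled to a common library total plus 8. HISAT2 2.1.0, featureCounts 2.0.0, SAMtools 1.9, bcl2fastq 2.17 and build GRCm39 are named in the submitters' processing notes; the counting of multi-mapped reads is not given in the sources. The second table served only 1 alternative.

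The main test was the quasi-likelihood test of edgeR 4.0.16 (R 4.3.3; filterByExpr filter, TMM scaling, no covariates), which kept 13403 genes and left 4469 untested. P-values were adjusted by Benjamini-Hochberg over all tested genes and called below 0.05. SE was taken as the log2 fold change divided by the root of F. The step was tested on simulated counts. The genes and lists were chosen with earlier results of these data known. Named beyond the 8 genes are Tfam, in each list up to 4 called genes, by size of change, that averaged 1 CPM or more, all where 5 or fewer moved one way, and for each called gene among the 8 the 2 genes with the highest Pearson correlation. Any gene of Opa1 processing could be named, but Oma1 and Yme1l1 were picked from that list, as were the markers Csf1r, Cd68 and Cx3cr1 from theirs, after their values were seen. The NRF1 motif was also searched at first and is not reported here. Alternatives used DESeq2 1.42.0, limma 3.58.1, other scalings and filters, glmTreat, the replicate block, an offset from splines (4 degrees of freedom) in transcript length and GC content from GENCODE M21 (GRCm38; 99.5% of tested genes), and each library left out. Near-identical transcripts were sought with BLAST 2.17.0 (95% identity, at least 100 bases).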

Additional observations from a re-analysis of the deposited data

How the results depend on the processing

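Of the 136 log2 fold changes of the 8 genes under alternatives, 121 kept direction and call, 9 lost the call, 4 gained one and 2 turned sign. The lost calls were 5 of Fis1 and 4 of Mief2. Each count includes the test against 1.5-fold, which could not call any of the 8 genes. The genes called higher numbered 4 with library totals and 2 in the authors' normalized table, where none (0) was called lower; with the offset for length and GC content 0 were called lower, and against a 1.5-fold change 0 were called in either direction. With each library left out in turn, 0 to 1 of the 8 genes were called higher and 0 to 1 lower. Dnm1l turned to -0.027 with the offset and ranged from -0.013 to 0.078 with libraries left out. Oma1 turned to 0.044 with library totals and 0.047 in the authors' table, and Yme1l1 ranged from -0.0020 to 0.059 with libraries left out, the lowest being without control 3. Tfam passed as higher with library totals (0.24) and in the authors' table (0.25), at adjusted p = 0.0403 and 0.0477. Over all genes, 389 were higher and 705 lower against a 1.5-fold change, and 2006 were lower in the authors' table. The cause of these differences was not tested, except that a test against a 1.5-fold change asks for a larger effect. Same-numbered libraries did not deviate together (correlations -0.10, -0.11 and 0.04), and only the libraries of replicate 3 correlated best with their own number. With the replicate block 2501 genes were higher and 2754 lower, and of the 8 genes 1 was called in each direction, Fis1 (adjusted p = 0.0292) and Mief2 (adjusted p = 0.0336); Mtfr1 (adjusted p = 0.0521) and Trak2 (adjusted p = 0.0641) were not called with it. The 8 genes had 204 to 3814 counts per library, and the standard errors of their log2 fold changes, 0.0718 to 0.119, limit what 3 libraries a group can show: changes of the size seen in Opa1 or Mief1 may be missed.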
